A study of Mus musculus with 10 samples.

Results

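Ring1b and H3K27me3 peaks of neural stem cells (NSCs) were set against each other and divided into 3 classes. A peak belonged to the class "both" where it shared at least 1 bp with a peak of the other list, and otherwise to Ring1b alone or H3K27me3 alone. The NSC lists held 3036 of the 9769 peaks of the series, 1389 for Ring1b and 1647 for H3K27me3. Of the Ring1b peaks, 385 were in the class both and 1004 were Ring1b alone. Of the H3K27me3 peaks, 441 were in the class both and 1206 were H3K27me3 alone. Overlapping peaks of the 2 lists were joined into 370 regions, so that the NSC genome held 370 regions with both, 1004 with Ring1b alone and 1206 with H3K27me3 alone.

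The NSCs had been made from J1 ESCs, a mouse ESC line, by differentiation in vitro, and were grown on gelatin with EGF and FGF. The ESCs, whose Ring1b, H3K27me3, Ezh2 and Cbx2 lists serve here only for reference, were J1 cells kept on feeder cells with serum and leukemia inhibitory factor, and the feeders were depleted before ChIP. No genotype or drug separated the cells, and both were fixed in 1% formaldehyde for 10 min and sonicated to fragments of 250 bp on average. The methods of the study add a protein cross-linker for Ring1b and not for H3K27me3, so antibody and fixation cannot be told apart in any difference between the lists. Each target had 1 library, so nothing here has a replicate check, no test between classes was made, and each range in brackets after a share is its 95% interval (Clopper-Pearson, exact), which covers counting error only. The lists hold positions in mm9 without height or score, tag numbers behind them are unknown, and a missing peak means that the threshold of the authors was not passed there.

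Ring1b (Rnf2) is the E3 ligase at the core of the Polycomb complex PRC1, which ubiquitylates histone H2A. H3K27me3 is the mark that the other Polycomb complex, PRC2, places through Ezh1 or Ezh2, and Cbx subunits of canonical PRC1 bind this mark. Variant PRC1 complexes carry Rybp or Yaf2 in place of a Cbx protein and reach CpG islands without the mark. The best known shared targets of both complexes are CpG-rich promoters of developmental regulators, such as the Hox genes, which are held silent in cells of the wrong lineage or position.

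Start sites of 6 genes are shown to let the promoters of the classes be compared by eye, 2 from each class, as the 200 bases of mm9 before the start site with every CpG in capitals. None of the 6 windows overlaps an annotated exon. Pax3, a paired-box regulator of neural crest, and Hoxd13, a limb and genital patterning gene at the end of the Hoxd cluster, lay under both peaks. Rybp and Pcgf2, which encode PRC1 subunits, lay under Ring1b alone. Kcnc4, a potassium channel gene of neurons, and Wnt6, a Wnt ligand gene, lay under H3K27me3 alone.
Pax3, chr1:78193710-78193909, reverse strand, both: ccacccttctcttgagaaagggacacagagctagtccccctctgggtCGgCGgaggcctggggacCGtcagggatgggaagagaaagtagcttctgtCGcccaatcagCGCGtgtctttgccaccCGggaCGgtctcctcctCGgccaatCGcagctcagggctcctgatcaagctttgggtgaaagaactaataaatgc
Hoxd13, chr2:74506167-74506366, forward strand, both: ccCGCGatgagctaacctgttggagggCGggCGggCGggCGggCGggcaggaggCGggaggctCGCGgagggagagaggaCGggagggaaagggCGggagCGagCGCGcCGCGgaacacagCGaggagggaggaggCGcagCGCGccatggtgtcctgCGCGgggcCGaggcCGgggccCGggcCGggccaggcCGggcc
Rybp, chr6:100237436-100237635, reverse strand, Ring1b alone: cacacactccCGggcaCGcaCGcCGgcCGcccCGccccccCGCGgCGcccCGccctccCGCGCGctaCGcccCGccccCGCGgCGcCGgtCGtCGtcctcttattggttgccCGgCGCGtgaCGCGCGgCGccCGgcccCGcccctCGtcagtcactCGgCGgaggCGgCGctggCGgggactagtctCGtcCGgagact
Pcgf2, chr11:97561812-97562011, reverse strand, Ring1b alone: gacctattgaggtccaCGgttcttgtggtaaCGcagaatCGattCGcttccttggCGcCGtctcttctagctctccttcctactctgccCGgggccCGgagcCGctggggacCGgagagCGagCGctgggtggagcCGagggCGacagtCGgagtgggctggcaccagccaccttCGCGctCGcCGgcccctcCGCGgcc
Kcnc4, chr3:107261817-107262016, reverse strand, H3K27me3 alone: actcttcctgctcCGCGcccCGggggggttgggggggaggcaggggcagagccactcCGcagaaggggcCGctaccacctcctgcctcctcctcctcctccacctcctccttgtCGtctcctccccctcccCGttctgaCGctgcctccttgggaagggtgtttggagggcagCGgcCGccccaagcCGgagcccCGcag
Wnt6, chr1:74818266-74818465, forward strand, H3K27me3 alone: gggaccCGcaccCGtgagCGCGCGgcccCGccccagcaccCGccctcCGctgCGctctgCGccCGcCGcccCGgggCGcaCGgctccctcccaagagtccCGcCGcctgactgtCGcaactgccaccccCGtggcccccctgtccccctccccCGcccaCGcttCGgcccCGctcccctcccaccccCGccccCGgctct
These windows held 10 CpGs for Pax3, 28 for Hoxd13, 38 for Rybp, 21 for Pcgf2, 12 for Kcnc4 and 25 for Wnt6. The same window held a median of 7 CpGs (quartiles 2 and 15) over 22203 protein-coding genes. The median was 12 (quartiles 7 and 19) over the 208 genes of the class both, 17 (12.5 and 23) over the 207 genes with Ring1b alone and 14 (8 and 19.8) over the 226 genes with H3K27me3 alone. Start sites in all 3 classes were thus richer in CpGs than the genome-wide median, and the quartiles of the classes overlapped.

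Most peaks of both lists had no partner. The class both took 27.7% of Ring1b peaks (25.4% to 30.2%) and 26.8% of H3K27me3 peaks (24.7% to 29.0%). By bases the share was larger, because shared peaks were wide. Peaks of the class both made up 57.6% of the 3.60 Mb under Ring1b and 47.9% of the 3.92 Mb under H3K27me3. The bases under both marks at once came to 1.44 Mb, which is 40.1% of the Ring1b bases and 36.9% of the H3K27me3 bases.

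Peaks with a partner were wider than peaks alone. Ring1b peaks that overlapped H3K27me3 had a median width of 3600 bp (quartiles 1800 and 6800 bp, widest 37600 bp), and those alone had 1200 bp (1000 and 1600 bp, widest 17000 bp). H3K27me3 peaks that overlapped Ring1b had a median of 3000 bp (1600 and 6000 bp, widest 39600 bp), and those alone had 1400 bp (1000 and 1800 bp, widest 10600 bp). The narrowest peak the lists allow is 1000 bp, the length of the counting window. That width was found in 37.7% of Ring1b alone peaks (34.7% to 40.8%) and in 6.23% of Ring1b peaks of the class both (4.03% to 9.13%). For H3K27me3 it was found in 32.7% of peaks alone (30.0% to 35.4%) and in 10.7% of peaks of the class both (7.94% to 13.9%).

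The share of peaks with a partner was higher at each greater width in both lists, as the plot of overlap by width shows. Among Ring1b peaks of 1000 bp it was 5.96% (24 of 403). It was 13.4% from 1200 to 1800 bp, 45.7% from 2000 to 3800 bp and 81.4% from 4000 to 7800 bp. Of the 83 Ring1b peaks of 8000 bp or more, 80 had an H3K27me3 partner (96.4%, 89.8% to 99.2%). H3K27me3 peaks went from 10.7% (47 of 441) at 1000 bp through 33.1% from 2000 to 3800 bp to 95.1% (58 of 61, 86.3% to 99.0%) at 8000 bp or more. A wide peak meets another list more readily by its length, and how far that accounts for this order was not tested.

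**Figure D1:**
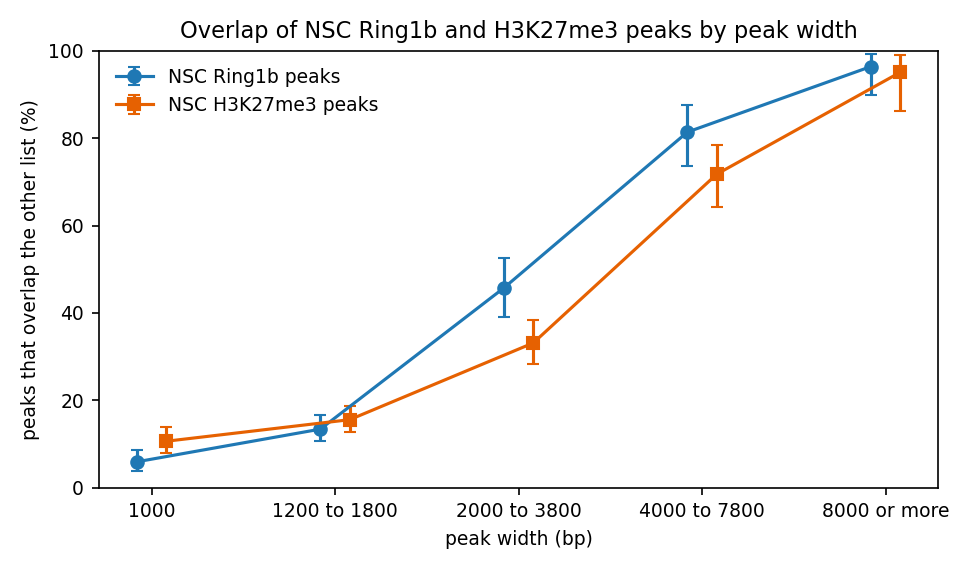
Share of NSC Ring1b peaks (circles) and NSC H3K27me3 peaks (squares) that overlap the other list, in percent, by peak width in bp, with exact 95% intervals as bars. The shares run from 5.96% and 10.7% at 1000 bp to 96.4% and 95.1% at 8000 bp or more.

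Within the 370 regions with both, the 2 marks covered much of the same ground but seldom had the same borders. In 305 regions (82.4%) 1 Ring1b peak met 1 H3K27me3 peak, and in 51 regions (13.8%) 1 Ring1b peak met more than 1 H3K27me3 peak. The opposite case, more than 1 Ring1b peak on a single H3K27me3 peak, occurred in 9 regions (2.43%). Ring1b covered more bases than H3K27me3 in 195 regions, fewer in 162 and as many in 13. Of the 305 one-to-one regions, H3K27me3 lay inside Ring1b in 90, Ring1b lay inside H3K27me3 in 82, and the peaks were staggered in 133. In the median region 75% of the Ring1b bases (quartiles 50% and 94.7%) lay under H3K27me3, and 78.9% of the H3K27me3 bases (55.6% and 100%) lay under Ring1b.

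Among the alone peaks as a whole, near misses were rare. An H3K27me3 peak lay within 1 kb of 4.28% of the Ring1b alone peaks (43 of 1004) and within 10 kb of 13.5%, and the median distance was 504.6 kb. A Ring1b peak lay within 1 kb of 3.65% of the H3K27me3 alone peaks (44 of 1206) and within 10 kb of 15.3%, with a median distance of 367.1 kb. Homeobox genes of the alone classes went both ways. The gap to the other list was 0.40 kb at Isl1 and Nkx2-9, 1.20 kb at Lhx9 and 2.80 kb at Otx1. It was 1148.2 kb at Rax and 5212.2 kb at Lmx1a.

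Start sites were more often found under the class both. Of its 370 joined regions, 47.8% (42.6% to 53.1%) held a start site of at least 1 protein-coding gene, against 19.8% (17.4% to 22.4%) of Ring1b alone and 18.1% (15.9% to 20.4%) of H3K27me3 alone. The intervals of the alone classes overlapped each other. Windows of 1 kb placed every 100 kb along the genome held a start site in 0.821% of 25566 cases. Widths were not matched in this comparison. The median was 5200 bp for joined regions with both, 1200 bp for Ring1b alone and 1400 bp for H3K27me3 alone. Counting start sites within 1 kb, the share was 49.6% for Ring1b peaks and 43.3% for H3K27me3 peaks of the class both, and 28.7% and 28.4% for Ring1b alone and H3K27me3 alone. In peaks under 2 kb wide, the start site share was 43.9% for Ring1b peaks with a partner and 27.8% for Ring1b alone, but 22.9% and 21.7% for H3K27me3 peaks with and without a partner. In wider peaks it was 51.6% and 33.8% for Ring1b, and 53.2% and 50.2% for H3K27me3. Measured from peak centres instead of edges, the share within 1 kb was 21.8% and 23.9% for Ring1b peaks and 21.1% and 19.7% for H3K27me3 peaks with and without a partner. By centres, the excess of the class both was thus not seen, and the cause was not tested.

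The median distance to a start site was 1.13 kb for Ring1b peaks and 2.57 kb for H3K27me3 peaks of the class both. It was 17.0 kb for Ring1b alone and 14.4 kb for H3K27me3 alone, and 68.1 kb for the windows. Over 100 kb from any start site lay 6.75% and 6.35% of the Ring1b and H3K27me3 peaks with a partner. In the alone classes this was 24.5% (21.9% to 27.3%) of Ring1b peaks and 21.6% (19.3% to 24.1%) of H3K27me3 peaks. Peak centres fell in an exon in 17.9% of Ring1b peaks with H3K27me3, 13.6% of Ring1b alone and 13.8% of H3K27me3 alone, against 2.97% of the windows.

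**Figure D2:**
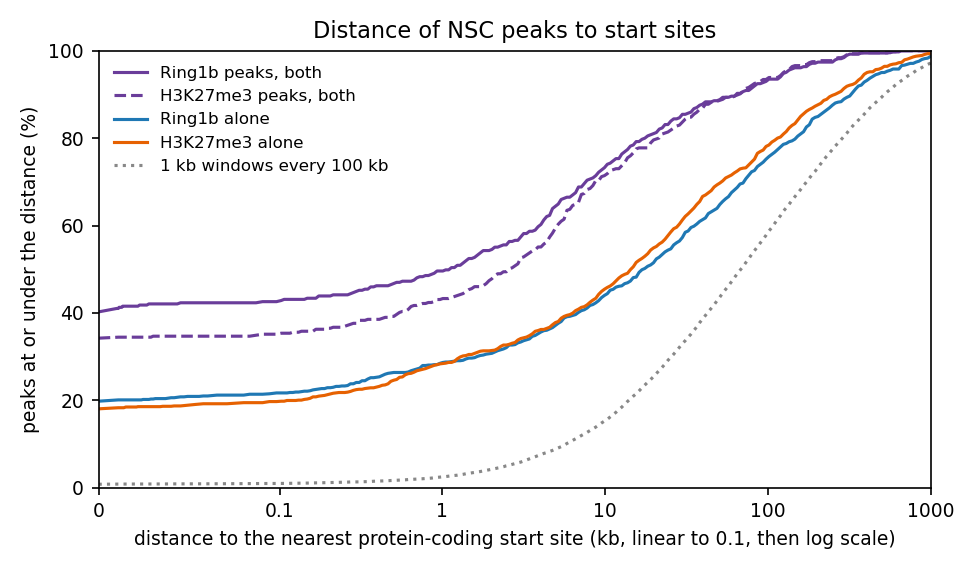
Cumulative share of NSC peaks, in percent, by distance to the nearest protein-coding start site in kb (linear to 0.1 kb, then log scale), for Ring1b and H3K27me3 peaks of the class both, for each class alone and for 1 kb windows every 100 kb. The curves of the class both lie above those of the alone classes, which run close together above the windows.

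By gene, the classes were of similar size. Of 22208 protein-coding gene names, 208 had a start site in a region with both (0.937%), 207 in Ring1b alone (0.932%) and 226 in H3K27me3 alone (1.02%), and no gene fell in more than 1 class. A gene was counted under a class by the region that held its start site, whichever peak of that region covered the site. What the genes were differed between the classes. Members of the transcription factor lists made up 52.9% of the genes with both (110 of 208, 45.9% to 59.8%), 13.7% of those with H3K27me3 alone (31 of 226, 9.51% to 18.9%) and 6.76% of those with Ring1b alone (14 of 207, 3.75% to 11.1%). They made up 1.48% of all gene names. These lists cover homeobox families and chosen other families and leave out the Zfp zinc finger genes. They do not give the share of all transcription factors in a class. The 208 genes with both came from 177 joined regions, and the intervals treat genes of the same region as independent. Homeobox genes alone accounted for 77 genes of the class both, 17 with H3K27me3 alone and 8 with Ring1b alone, of 181 in the annotation.

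Hox genes, which give body segments their identity along the axis, were the list with the most members in regions with both. Of 39 Hox genes, 26 had a start site in a region with both (66.7%, beside 0.937% of all genes), 2 in H3K27me3 alone and 0 in Ring1b alone. Hoxc stood highest with 8 of 9 genes, followed by Hoxd with 7 of 9, Hoxb with 7 of 10 and Hoxa with 4 of 11. Over the span from the first to the last gene, Ring1b covered 35.9% of Hoxa, 32.2% of Hoxb, 50.9% of Hoxc and 51.1% of Hoxd, and H3K27me3 covered 30.0%, 30.3%, 56.1% and 56.6% in the same order. ESC Ring1b covered more of each cluster, from 55.7% in Hoxb to 85.0% in Hoxa. ESC H3K27me3 covered more of Hoxa, 58.2%, and less of the other 3 clusters, with 21.7% of Hoxb, 34.6% of Hoxc and 36.2% of Hoxd. The exceptions under H3K27me3 alone stood at the edges of their clusters. The Hoxb13 peak was 2200 bp wide and 4.40 kb from a Ring1b peak, and the Hoxd1 peak was 2800 bp wide and 10.8 kb from one.

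The widest region of any class lay over Hoxd, from 74488201 to 74552800 on chromosome 2 (64600 bp). It joined 2 Ring1b peaks of 59800 bp in sum with 5 H3K27me3 peaks of 50800 bp in sum. Start sites of Evx2, Hoxd13, Hoxd12, Hoxd11, Hoxd10, Hoxd9, Hoxd8 and Hoxd3, and of the gene model Gm14396, lay inside it. In the map of this locus, a single H3K27me3 peak ran from -14.8 to 24.8 kb of the Hoxd13 start site, across a gap between the Ring1b peaks from 4.03 to 8.83 kb. Downstream of it, H3K27me3 broke into 4 smaller peaks under 1 continuous Ring1b peak that ended at 46.4 kb. The start site of Hoxd4, inside the Hoxd3 gene, lay under neither mark. Within the Hoxd4 gene, from 53.7 to 60.85 kb, lay an NSC H3K27me3 peak from 58.2 to 59.4 kb and no NSC Ring1b peak.

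**Figure D3:**
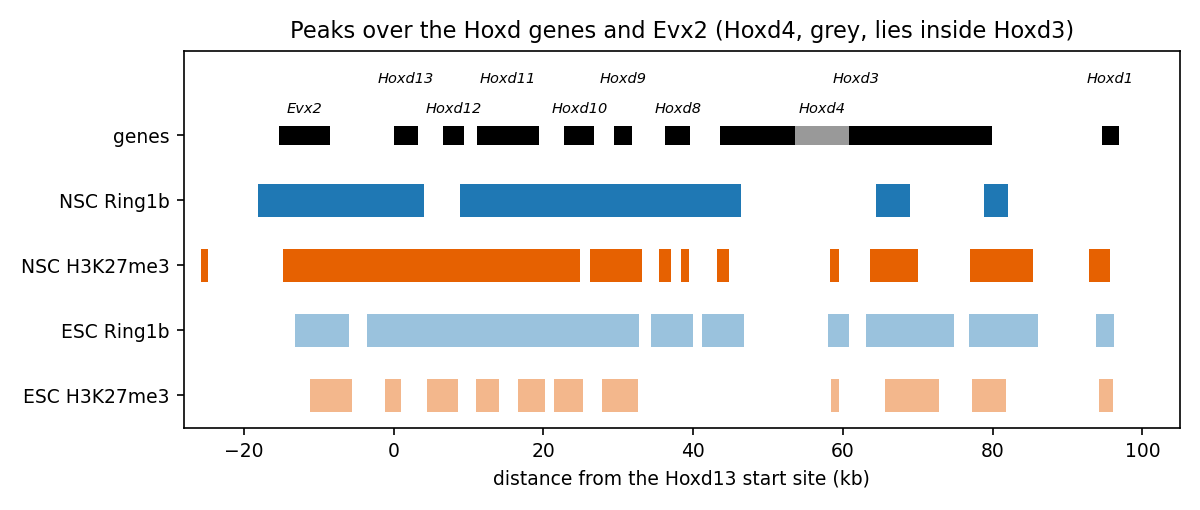
Map of peaks over Evx2 and the Hoxd genes in kb from the Hoxd13 start site, with genes in black (Hoxd4 in grey), Ring1b peaks in blue and H3K27me3 peaks in orange, NSC lists in full colour and ESC lists pale. NSC Ring1b ends at 46.4 kb and resumes in 2 short peaks, and the Hoxd1 start site has H3K27me3 and no Ring1b.

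Counts here and in the next paragraph stand beside 0.937% of all genes under both, 0.932% under Ring1b alone and 1.02% under H3K27me3 alone. A gene counted under both had its start site in a region with both, whichever peak covered the site. Most other homeobox families also had more members under both than under either mark alone. The POU genes, with 1 of 14 under both, 1 under Ring1b alone and 2 under H3K27me3 alone, and the Iroquois genes, with Irx5 of 6 under Ring1b alone, did not. Six3 and Six6 of the forebrain and eye were in regions with both, the start site of Six6 under both peaks and that of Six3 under H3K27me3 only, and the Dlx genes, which pattern the ventral forebrain and jaws, had 4 of 6 (Dlx1, Dlx2, Dlx5 and Dlx6). Nkx genes had 7 of 14, among them Nkx2-1 of the ventral forebrain and Nkx2-5 of the heart, and Pax genes had 5 of 9 (Pax1, Pax2, Pax3, Pax5 and Pax7). The start sites of Dlx5, Nkx2-5 and Pax7 were, like that of Six3, under H3K27me3 only, and that of Dlx2 was under Ring1b only. LIM homeobox genes had 5 of 12 under both, with Lhx9 and Lmx1a under H3K27me3 alone and Isl1 under Ring1b alone. No gene of the families of Six3, Dlx1, Nkx2-1 and Pax1 was in the class Ring1b alone. Dlx1 and Dlx2 shared a region of 21200 bp on chromosome 2, in which Ring1b covered 21200 bp and H3K27me3 16200 bp. Uncx, a homeobox gene of somites and neurons, lay in a region of 24600 bp on chromosome 5 with 20200 bp of Ring1b and 23800 bp of H3K27me3. Hoxa11 and Hoxa13 shared 27400 bp on chromosome 6.

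Among other transcription factors, forkhead genes had 13 of 43 members under both, 4 under H3K27me3 alone and 1 (Foxp2) under Ring1b alone. The endoderm gene Foxa1 lay in a region of 17000 bp. Its relative Foxa2 had H3K27me3 alone over 6200 bp, with the nearest Ring1b peak 1.60 kb away. Gata genes of blood and endoderm had 3 of 6 under both (Gata2, Gata3 and Gata6) and none elsewhere, and basic helix-loop-helix genes had 9 of 42, including Neurog2, Atoh1 and Hand2. T-box genes were spread over the classes, with 2 of 17 under both (Eomes and Tbx18), 4 under H3K27me3 alone (T, Tbx1, Tbx20 and Tbx21) and 2 under Ring1b alone (Mga and Tbx15). Sox genes had 2 of 18 in regions with both (Sox14 and Sox17) and 2 under H3K27me3 alone (Sox2 and Sox18). That is 11.1% each, beside 0.937% and 1.02% of all genes. The start sites of Sox14 and Sox17 were themselves under H3K27me3 only, and those of Gata3 and Tbx18 under Ring1b only. Zic genes had 2 of 5 under both and Zic2 under Ring1b alone, AP-2 genes had 2 of 5 under both and Tcfap2a under Ring1b alone, and of 9 Hes and Hey genes of the Notch pathway Hes1 had Ring1b alone and Hes2 H3K27me3 alone. None of the 3 COUP-TF genes was in a class.

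Inside regions with both, the start site itself was not always under both peaks. Of 211 gene models in these regions, 140 (66.4%, 59.5% to 72.7%) had the start site under both, 42 (19.9%) under Ring1b only and 29 (13.7%) under H3K27me3 only. Pdgfra, a receptor gene of fibroblasts and glial precursors, was among those under Ring1b only, and Six3 was among those under H3K27me3 only.

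The signalling genes found in a class mostly had H3K27me3 alone. Of 77 Wnt, Fgf, TGF-beta and hedgehog ligand genes, 9 were H3K27me3 alone (11.7%, beside 1.02% of all genes), 3 Ring1b alone and 1 both. Wnt3a, Wnt6, Wnt10b and Wnt11 had H3K27me3 peaks of 3400, 2800, 2000 and 2400 bp, that of Wnt6 from 74816801 to 74819600 on chromosome 1. Ring1b lay 12.6 kb from the Wnt10b peak and 773.6 kb or more from the other 3. In ESCs all 4 start sites had been under Ring1b, by peaks from 3600 to 6600 bp, and under H3K27me3. Fgf3, Fgf4 and Fgf15 and the BMP family genes Bmp6 and Gdf6 completed the group.

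Potassium channel genes, which shape the firing of neurons, had H3K27me3 without Ring1b where they were in a class, with 1 exception. Of 92 such genes, 7 were H3K27me3 alone (7.61%, beside 1.02% of all genes), among them Kcna2, Kcna3, Kcnc4 and Kcnk1, 1 was Ring1b alone (Kcnj4, 1.09%, beside 0.932%) and 0 were both. The H3K27me3 peaks ran from 1200 bp at Kcnk1 to 3400 bp at Kcnc4, around the median of 1800 bp for H3K27me3 alone peaks near a start site. Genes with H3K27me3 over the widest stretches without Ring1b were Onecut3, a homeobox gene of neurons and liver, with 9000 bp on chromosome 10, and the trophoblast and gut regulator Cdx2 with 8000 bp on chromosome 5. ESC Ring1b had been present at both start sites, over 19600 and 16800 bp. The other neural lists had counts of 1 or 2 genes in a class. Axon guidance genes had 1 of 72 in regions with both (Epha7, 1.39%, beside 0.937% of all genes) and 2 under Ring1b alone (Nrp2 and Sema5b, 2.78%, beside 0.932%). The Epha7 start site was under Ring1b only. Transmitter receptor genes had 1 of 53 under both (Grm8) and 1 under H3K27me3 alone (Grm6), which is 1.89% each. Protocadherins outside the gene clusters had 2 of 12 under both and 2 under H3K27me3 alone, or 16.7% each.

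Among genes with Ring1b alone, the largest family by symbol was Zfp, with 8 genes, of which 7 were among the 396 zinc finger genes of the Zfp list (1.77%, beside 0.932% of all genes) and 1 was Zfp36l2. Of 30 genes of Polycomb subunits, Pcgf1, Pcgf2, Pcgf6 and Rybp had Ring1b alone (13.3%, beside 0.932% of all genes), and none had H3K27me3 in any class. Their peaks were 1400, 1800, 1400 and 1800 bp wide, that of Rybp from 100237001 to 100238800 on chromosome 6 across the start site. None of the 4 start sites was under a peak of any ESC list. A run of 4 Ring1b alone regions spanned 27.4 kb of chromosome 2 around Bmi1 (Pcgf4), whose own start site was in no region, a case named after its values were seen.

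Some of the widest Ring1b alone regions lay on developmental regulators. Tcfap2a, a regulator of neural crest, had 12400 bp on chromosome 13 and Isl1, a LIM homeobox gene of motor neurons, had 6400 bp. For both the lack of overlap was a matter of short gaps, 1.60 kb for Tcfap2a and 0.40 kb for Isl1. The uncharacterised gene 2300009A05Rik had 8200 bp on chromosome 9 with an H3K27me3 peak 0.60 kb away. Pou3f1, a POU gene of neural progenitors, had 3800 bp and no H3K27me3 peak within 1472.6 kb.

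As to cell identity, the lists say little that bears on the NSC label. Of 14 neural stem cell marker genes, Hes1 had Ring1b alone (2200 bp) and Sox2 had H3K27me3 alone (1800 bp, from 34548801 to 34550600 on chromosome 3, with the nearest Ring1b peak 1102 kb away), and the others were in no class. Hes1 and Sox2 were each 7.14% of that list. Of all genes, 0.937% were in both, 0.932% in Ring1b alone and 1.02% in H3K27me3 alone. No start site of 14 neuron markers or 10 glia markers was in any class, which says little in lists this short. Of 16 pluripotency genes, Lin28a (1800 bp) and Utf1 (2400 bp) were H3K27me3 alone (12.5% of the list). Sox2, Lin28a, Utf1 and Hes1 had no peak of any ESC list at the start site. Endoderm and mesoderm markers had 5 of 16 under both (31.25%) and 2 under H3K27me3 alone (12.5%). No RNA was analysed here, so whether the genes were transcribed is not known from these data. Olfactory receptor genes had 1 of 1094 in a class (Olfr94, H3K27me3 alone, 0.0914% of the list). Vomeronasal receptor genes had 0 of 350 in any class. Ribosomal protein genes had 0 of 82, histone cluster genes 0 of 67 and clustered protocadherin genes 0 of 24. At the shares of all genes given above, a count of 0 in lists of 24, 67 or 82 genes says little. Of 9 fibroblast markers, Pdgfra lay in a region with both, its start site under Ring1b only, and the others were in no class.

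**Figure D4:**
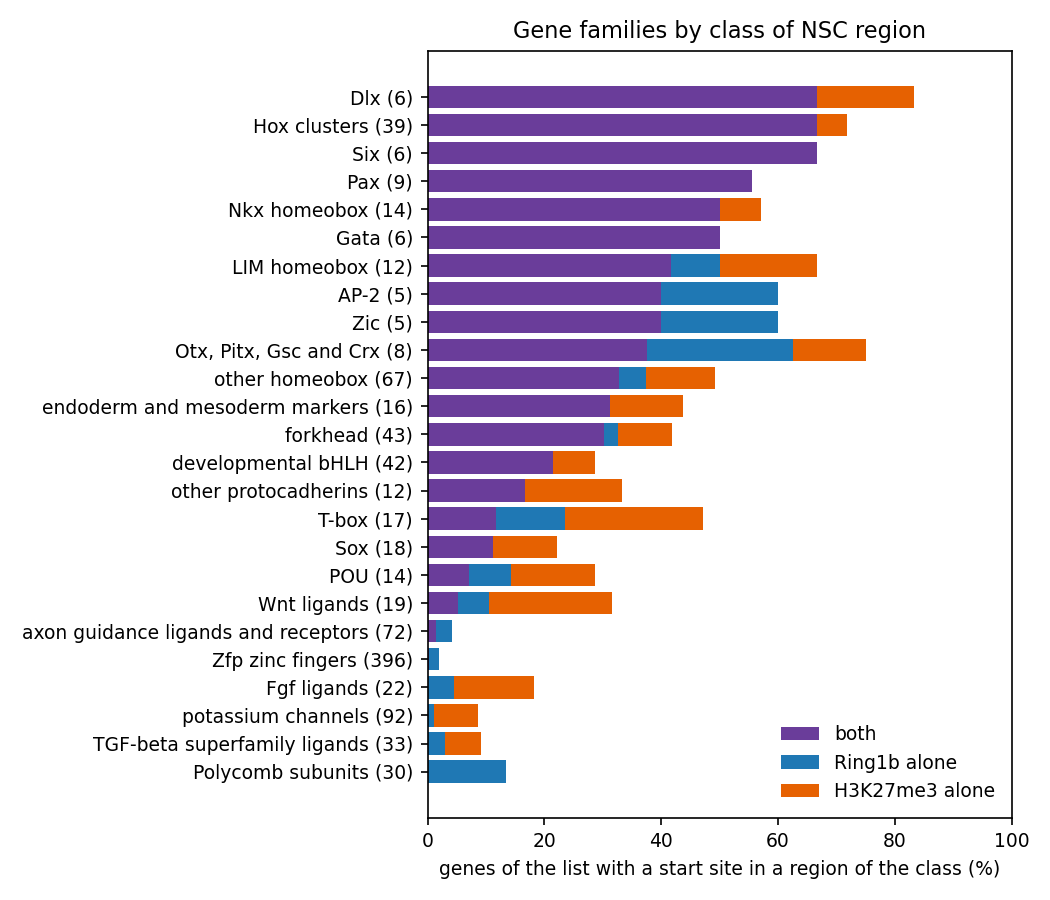
Share of each gene list, in percent, with a start site in a region with both (purple), Ring1b alone (blue) or H3K27me3 alone (orange), with the number of genes in each list in brackets, for lists with at least 3 genes in any class. Most homeobox families are mainly purple, Wnt ligands and potassium channels mostly orange, and the 4 Polycomb subunit genes all blue.

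Along the chromosomes, regions of the class both came in groups more often than the others. Another region of the same class lay within 50 kb of 44.3% of the regions with both (39.2% to 49.5%), 31.2% of H3K27me3 alone (28.6% to 33.9%) and 16.3% of Ring1b alone (14.1% to 18.8%). The median distance to the next region of the same class was 206.6 kb, 237.0 kb and 707.4 kb in that order. When peaks of a list within 3 kb of each other were first merged, these medians were 701.6 kb, 362.4 kb and 786.4 kb, and the class both no longer had the shortest. Regions with both were the fewest of the 3 classes. With a gap of at most 50 kb, regions with both formed 18 runs of 3 or more that held 18.4% of them, H3K27me3 alone formed 50 runs with 17.6%, and Ring1b alone formed 18 runs with 6.77%. By number of regions, the largest runs with both were the Hoxc cluster, with 8 regions over 130.4 kb, and Hoxb, with 6 over 89.2 kb. A run of 5 regions over Six6 and one of 4 over Hoxa were longer than that of Hoxb, at 99.8 and 95.2 kb.

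The classes were also neighbours of each other. A region of any class lay within 50 kb of 67.3% of regions with both, 42.2% of H3K27me3 alone and 29.3% of Ring1b alone. Of the 335 runs of regions of any class, 120 held a single class, 179 held 2 classes and 36 held all 3. The run with the most regions, 21, had no start site in it. It lay from 37113201 to 37292000 on chromosome 16, 93.0 kb from the start site of Stxbp5l, and held 8 regions with both, 5 with Ring1b alone and 8 with H3K27me3 alone over 178.8 kb. A run of 17 regions over 194.4 kb of chromosome 9 held only the start site of 2300009A05Rik, and a run of 16 regions, 13 of them Ring1b alone, spanned 244.2 kb of chromosome 6 with the nearest start site, of Foxp2, 282.1 kb away. None of these 3 runs held a peak of any of the 4 ESC lists. The run over Six6 on chromosome 12 had 15 regions over 224.0 kb, with 2 of the widest regions with both, 27800 and 25400 bp, over the gene 4930447C04Rik where no ESC list had a peak. The run on chromosome 6 lay inside the Foxp2 gene (14851349 to 15391977). That on chromosome 16 lay, apart from its first bases, inside the Stxbp5l gene (37115028 to 37385048). Runs of NSC peaks over more than 100 kb thus lay both over start sites of developmental genes and at a distance from any start site.

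Of regions far from any start site, the widest with both was 12000 bp in an intron on chromosome 16 (37135801 to 37147800). The widest with Ring1b alone was 7000 bp on chromosome 7, outside genes and 191.0 kb from Nr2f2, and the widest with H3K27me3 alone was 10600 bp on chromosome 6, outside genes and 148.0 kb from the start site of Rybp. The 200 bases at the centres of the last 2 are shown for contrast with the start sites above, again with CpGs in capitals.
Ring1b alone, chr7:77317001-77317200, forward strand: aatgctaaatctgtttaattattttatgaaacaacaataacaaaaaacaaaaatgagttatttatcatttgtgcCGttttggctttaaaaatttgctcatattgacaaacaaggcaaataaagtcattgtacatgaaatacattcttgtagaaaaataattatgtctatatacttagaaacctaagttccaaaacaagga
H3K27me3 alone, chr6:100084001-100084200, forward strand: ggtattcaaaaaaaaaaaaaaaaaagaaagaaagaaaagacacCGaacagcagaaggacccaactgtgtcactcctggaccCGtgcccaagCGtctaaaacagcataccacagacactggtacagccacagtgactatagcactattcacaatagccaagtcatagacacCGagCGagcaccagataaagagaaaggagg
These windows held 1 and 5 CpGs at a GC content of 25% and 44.5%, compared with 58.5% to 81.5% in the 6 start site windows.

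Base composition differed between the classes. The median ratio of observed to expected CpGs was 0.57 in Ring1b peaks and 0.53 in H3K27me3 peaks with a partner, 0.26 in Ring1b alone, 0.24 in H3K27me3 alone and 0.16 in the windows. Where a start site lay within 1 kb, the order turned, with 0.76 in Ring1b alone, 0.65 in H3K27me3 alone, and 0.62 and 0.60 in Ring1b and H3K27me3 peaks of the class both. Away from start sites it was 0.18 in both alone classes and 0.44 and 0.39 in peaks of the class both. Median GC content was 49.9% and 49.8% for peaks with a partner, 43.8% for Ring1b alone and 47.3% for H3K27me3 alone. In peaks of at least 2 kb the H3K27me3 classes came close by CpG ratio, at 0.55 with a partner and 0.53 alone, and their order by GC content turned, at 51.25% and 55.0%. The Ring1b classes stayed apart at this width, with CpG ratios of 0.56 and 0.35 and GC contents of 49.3% and 40.8%. Peaks in which under 50% of 32-base words occur once in the genome made up 11.4% of Ring1b alone (9.46% to 13.5%), 5.64% of H3K27me3 alone and 0.78% and 0.91% of Ring1b and H3K27me3 peaks with a partner, compared with 12.2% of the windows. Their part in the results was tested by leaving these peaks out, and the start site share of Ring1b alone then went from 28.7% to 32.4%. A run of 7 H3K27me3 alone regions at the start of chromosome 9, from 2999601 to 3039000 and mostly over Gm gene models, spanned 12 start sites. In all, 7 of the 226 genes with H3K27me3 alone were lost when peaks of repeated words were left out.

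Chromosome X set the alone classes apart. It held 11.3% of the Ring1b alone regions (113 of 1004, 9.37% to 13.4%), 4.73% of H3K27me3 alone (3.60% to 6.08%) and 1.35% of the regions with both (5 of 370, 0.44% to 3.13%). Per Mb, Ring1b alone was 1.88 times as dense on X as on the autosomes, H3K27me3 alone 0.74 times and both 0.20 times. For the ESC lists this ratio was 1.33 for Cbx2, 0.45 for Ring1b, 0.46 for Ezh2 and 0.25 for H3K27me3. Of the 113 X regions with Ring1b alone, 13 (11.5%) lay within 1 kb of a start site, 50 (44.2%) were 1000 bp wide and 7 (6.19%) overlapped an ESC Ring1b peak. Under 50% of words were unique in 14.2% of them, compared with 27.4% of the windows on X. On the autosomes the density of Ring1b alone ran from 0.22 regions per Mb on chromosome 18 to 0.55 on chromosome 19. H3K27me3 alone was densest on chromosome 9 with 0.79 per Mb, and both on chromosome 19 with 0.24.

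**Figure D5:**
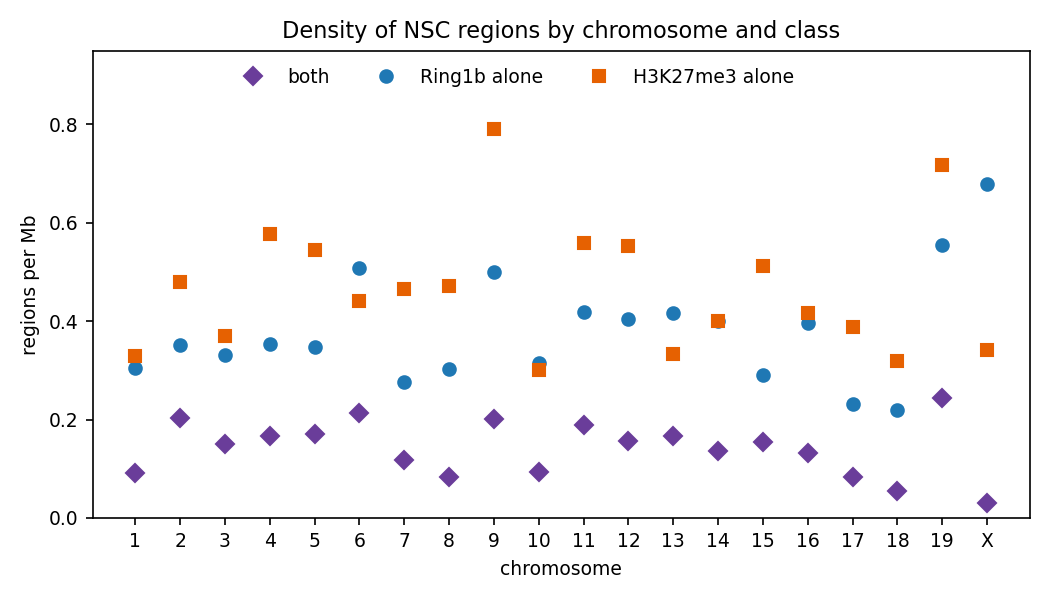
Regions per Mb on each chromosome for the classes both (diamonds), Ring1b alone (circles) and H3K27me3 alone (squares). On X, Ring1b alone stands at 0.68 per Mb, above its value on every autosome, and both at 0.03, below its value on every autosome.

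Set beside the ESC lists, the classes differed in how much of them was already occupied in the parent line. Of the Ring1b peaks with H3K27me3, 73.0% (68.3% to 77.4%) overlapped an ESC Ring1b peak, compared with 21.7% (19.2% to 24.4%) of Ring1b alone. Of the H3K27me3 peaks with Ring1b, 55.6% (50.8% to 60.3%) overlapped an ESC H3K27me3 peak, compared with 28.1% (25.6% to 30.7%) of H3K27me3 alone. In peaks of at least 2 kb the contrast was smaller for both targets, with 74.6% and 38.5% of Ring1b peaks with and without a partner and 66.7% and 55.4% of H3K27me3 peaks. None of the 4 ESC lists had a peak at 25.5% of the Ring1b peaks and 29.3% of the H3K27me3 peaks of the class both, but at 77.4% of Ring1b alone and 64.5% of H3K27me3 alone. With no start site within 1 kb, these shares were 88.7% of Ring1b alone and 82.5% of H3K27me3 alone.

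At the genes, ESC Ring1b lay over the start site of 88.9% of genes with both (185 of 208, 83.9% to 92.9%), 67.7% with H3K27me3 alone (153 of 226, 61.2% to 73.7%) and 48.8% with Ring1b alone (101 of 207, 41.8% to 55.8%). ESC H3K27me3 lay over 60.6% with both, 58.4% with H3K27me3 alone and 20.8% (15.5% to 26.9%) with Ring1b alone. Cbx2, which belongs to canonical PRC1, lay over 58.7% of genes with both in ESCs, 13.7% with H3K27me3 alone and 6.28% with Ring1b alone. The share of all protein-coding start sites under each ESC list is not given here, so these values compare the classes only with each other. In these lists, genes with H3K27me3 alone in NSCs were more often under ESC Ring1b than genes with Ring1b alone in NSCs. The intervals of these shares cover counting error only, and the difference between the classes was not tested. Genes with H3K27me3 alone lacked ESC Cbx2 as a rule. Otx1 and Tcfap2a were among several Ring1b alone genes with peaks of all 4 ESC lists at the start site. At Otx1 these ran from 10600 to 14800 bp. Its NSC Ring1b peak was 2200 bp wide, with an NSC H3K27me3 peak 2.80 kb away.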

How the data were processed

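The deposited files give where each peak begins and ends (mm9, 1 library per target), called by the authors from tags in 1 kb windows every 200 bp against input, with close windows merged. The aligner is BWA per the labels and Bowtie per the methods of the study. The 4 inputs were not analysed here. Some genes that the rules select are not reported here. Overlap meant at least 1 shared bp. Start sites, exons and sequence came from NCBIM37 (mm9) and GENCODE vM1 (22350 protein-coding genes, 22208 names, 20 chromosomes). Python 3.11.15, numpy 2.4.6 and scipy 1.17.1 were used, and interval code was tested on simulated data. Families came from 40 symbol lists, matched also by current RefSeq symbols. Members and lists were chosen with earlier results of these data known. Genes named are those in the 8 widest regions of a class, list members, families with at least 4 genes in a class, and neighbours of the 3 widest regions per class over 100 kb from a start site. Bmi1 and the genes of the runs on chromosomes 9 and 16 were named after their values were seen. Alternatives were other overlaps, widths, merging, start sites and chromosomes, and, added after the data were seen, leaving out peaks of repeated words.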

Additional observations from a re-analysis of the deposited data

How the results depend on the processing

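Of 113 values recomputed under alternatives, 65 stayed within the counting interval of the reported value, or within 1.5 times a reported count, and 48 moved. With peaks of at least 2 kb, the share with a partner was 52.2% of Ring1b and 43.5% of H3K27me3 peaks, and there were 218 regions with both, 208 with Ring1b alone and 330 with H3K27me3 alone. Median widths were then 5600 and 2600 bp for Ring1b with and without a partner and 5000 and 2800 bp for H3K27me3, which follows from leaving out narrow peaks. In the same peaks GC was 40.8% in Ring1b alone and 55.0% in H3K27me3 alone, against 49.3% and 51.25% with a partner, so that the order of the H3K27me3 classes turned. The CpG ratio was 0.35 and 0.53 alone, against 0.56 and 0.55 with a partner, and overlap with the ESC list of the same target was 38.5% in Ring1b alone, 55.4% in H3K27me3 alone and 66.7% in H3K27me3 peaks with a partner. The start site share was 33.8% in Ring1b alone, 50.2% in H3K27me3 alone and 53.2% in H3K27me3 peaks with a partner, so that among wide H3K27me3 peaks the classes were close. Under 2 kb it was 43.9% in Ring1b peaks with a partner, and 22.9% and 21.7% in H3K27me3 peaks with and without one. Measured from the peak centre, the share was 21.8% and 23.9% for Ring1b with and without a partner and 21.1% and 19.7% for H3K27me3, so the excess of the class both over the alone classes ended. The cause was not tested. Start sites inside the peak gave 40.3%, 19.8%, 34.2% and 18.1% in the same order, all annotated genes gave 57.1%, 32.1%, 49.0% and 31.2%, and every transcript start gave 58.7%, 32.7%, 51.7% and 32.9%. Counting peaks within 1 kb as shared gave 30.8% of Ring1b and 29.4% of H3K27me3 peaks. Merging within 3 kb gave 24.5% of H3K27me3 peaks, median widths of 4400 bp for Ring1b and 4400 bp for H3K27me3 with a partner, and distances to the next region of the same class of 701.6 kb for both, 786.4 kb for Ring1b alone and 362.4 kb for H3K27me3 alone, so that the class both no longer had the shortest. The CpG ratio of the centre 1 kb was 0.50 in H3K27me3 peaks with a partner. Without peaks of repeated words, the start site share of Ring1b alone was 32.4%, and homeobox counts stayed at 77, 8 and 17 for both, Ring1b alone and H3K27me3 alone.

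The lists bound what can be said: 1 library per target, positions without height, and an unknown number of tags. A class alone means that the other target passed no threshold, which does not show its absence. Depth and the thresholds of the lists cannot be told apart from the biology in the class sizes.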
